A study of Camellia sinensis and Camellia sinensis var. assamica with 18 samples.

Results

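The return to warmth after cold acclimation was examined in leaves of the tea plant Camellia sinensis var. 'Shuchazao' (SCZ), the cold-tolerant member of a pair of cultivars. The step is the comparison of SCZ_DA, sampled on day 21 after 7 days of de-acclimation at 25 °C (day) and 20 °C (night), with SCZ_CA, sampled on day 14 at the end of cold acclimation. SCZ_CA seedlings had spent 7 days at 10 °C (day) and 4 °C (night), then 7 days at 4 °C (day) and 0 °C (night), and SCZ_DA seedlings had passed through the same cold before warming. SCZ_NA seedlings (day 0) were kept at 25 and 20 °C and never chilled. All were tissue culture seedlings 4 to 5 cm high, so the leaves came from small young plants rather than from field bushes. YH9, the cold-sensitive cultivar 'Yinghong 9' of var. assamica, went through the same stages and served only for comparison. The members were the 6 libraries of SCZ_DA and SCZ_CA (3 each) among the 18 libraries of the series, and the 29019 of 41021 loci with an FPKM (fragments scaled by transcript length and library total) of at least 1 in at least 3 of the 18 libraries.

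Cold acclimation is the process by which a plant gains freezing tolerance during days at low but non-freezing temperature. CBF/DREB1 transcription factors switch on cold-regulated genes, whose products include dehydrins and other late embryogenesis abundant (LEA) proteins, sugar-forming enzymes and lipid desaturases that keep membranes fluid. At the same time light energy that the chilled Calvin cycle cannot use is dissipated, and growth slows. De-acclimation is the loss of this state in the warmth. These accounts come mainly from Arabidopsis thaliana and are given as background, and the roles named for single genes below follow their product descriptions.

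Replicates of SCZ_DA resembled each other more than they resembled SCZ_CA. Pearson's r of log2 expression between libraries, a correlation across loci given as a description, lay between 0.925 and 0.938 within SCZ_DA and between 0.881 and 0.932 within SCZ_CA. Between SCZ_DA and SCZ_CA it lay between 0.753 and 0.853, and between SCZ_DA and SCZ_NA between 0.835 and 0.917. Total counts ranged from 55678493 to 58187658 in SCZ_DA and from 57752767 to 78305612 in SCZ_CA. The spread among replicates, as edgeR's biological coefficient of variation fitted to a group alone, was 0.473 in SCZ_DA, 0.606 in SCZ_CA and 0.521 in SCZ_NA. It was lower in YH9, at 0.386 in YH9_NA, 0.371 in YH9_CA and 0.287 in YH9_DA. The test shared 1 estimate of spread over all 18 libraries. With the spread of SCZ_DA and SCZ_CA alone, 5154 loci passed the call defined below rather than 8457. The paper calls the replicates biological, but neither it nor the labels say that they are separate seedlings. The p-values therefore rest on a spread between libraries that may be technical in part. As the leaf is a mixture of cells, fewer cells of a type and less RNA per cell cannot be told apart.

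One library in each group carried the high values of many extreme genes. SCZ_DA replicate 2 held the highest SCZ_DA value of 12 of the 15 largest rises described below, and 42.2% of all loci called higher had their highest SCZ_DA value there. SCZ_CA replicate 2 held the highest SCZ_CA value of 10 of the 15 largest falls and of 54.4% of all loci called lower. Without both libraries, an alternative chosen after seeing the data, 3653 loci were called higher and 3151 lower, and 5912 of these were among the calls made with all libraries.

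Between SCZ_DA and SCZ_CA the level of 29.1% of the leaf transcripts tested in SCZ differed, in both directions. The groups differ in sampling day (21 against 14) and so in seedling age as well as in temperature, and these cannot be told apart. Of the 29019 loci, 8457 passed the call used here, an adjusted p (Benjamini-Hochberg) below 0.05 in edgeR's quasi-likelihood test with at least a 2-fold change. Among these, 4528 loci (15.6% of those tested) were higher in SCZ_DA and 3929 (13.5%) were lower. The change was at least 4-fold at 3643 of the called loci and at least 16-fold at 867, of which 460 rose and 407 fell. In 7456 of the called loci (88.2%) the 3 SCZ_DA values did not overlap the 3 SCZ_CA values. The genes named below were taken from called loci, so a lack of overlap at them is usual and is no further support. Over all loci tested, called or not, the 3 SCZ_DA values lay entirely above those of SCZ_CA at 26.3% and entirely below at 15.9%. The split depended on the scaling between libraries, since 53.5% of calls were higher with TMM factors, 64.1% with no scaling beyond the total count, and 65.3% in limma on log2(FPKM + 1). The median log2 fold change of all loci was 0.01 with TMM factors, 0.19 with no scaling and 0.14 in that limma fit.

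**Figure D1:**
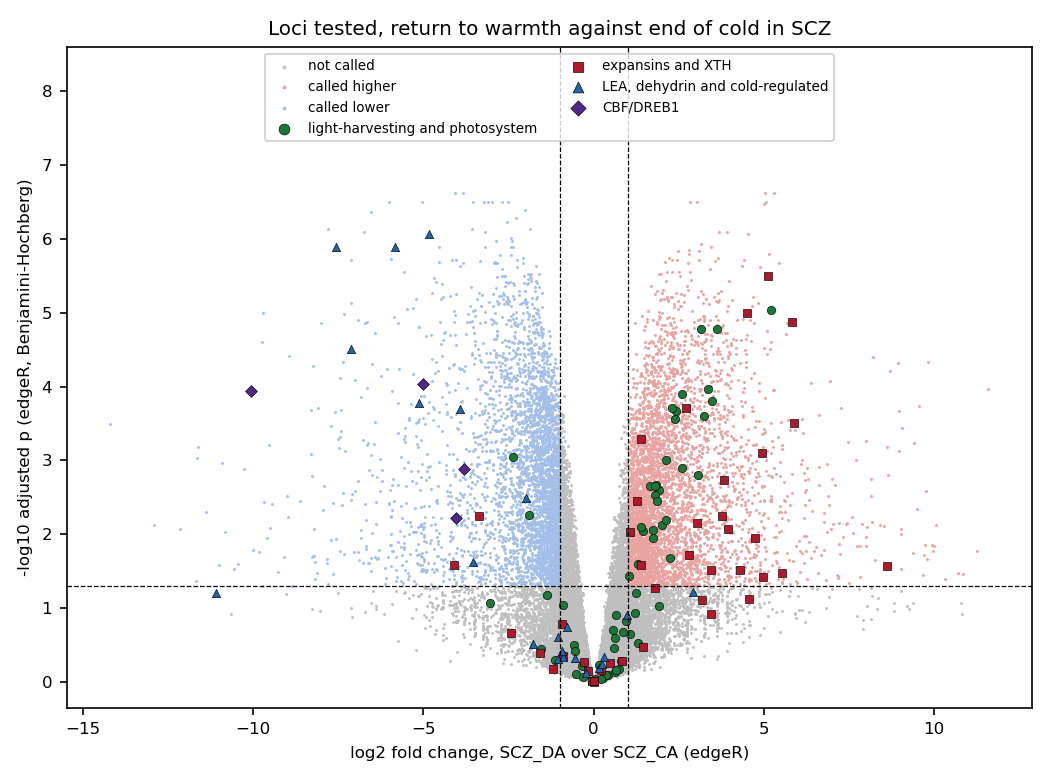
Each point is 1 of the 29019 loci, with the log2 fold change of SCZ_DA over SCZ_CA on the x axis and the -log10 adjusted p of edgeR on the y axis, and dashed lines mark the thresholds of the call. The 4 CBF/DREB1 factors (diamonds) and the 8 called LEA, dehydrin and cold-regulated proteins (triangles) lie on the lower side, while most called light-harvesting and photosystem proteins (circles) and expansins and xyloglucan endotransglucosylases (squares) lie on the higher side.

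The gene groups below were defined by words in the product descriptions, and each count is to be read against the 15.6% of all loci that rose and the 13.5% that fell. Among groups of at least 4 tested loci, the highest shares of falling members were in the CBF/DREB1 factors, raffinose and galactinol synthesis, ethylene-responsive factors and desaturases. The highest shares of rising members, in groups of that size, were in expansins and xyloglucan endotransglucosylases, pectin-modifying enzymes, jasmonate synthesis and light-harvesting proteins. These shares are descriptions, and no group was tested against the others.

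**Figure D2:**
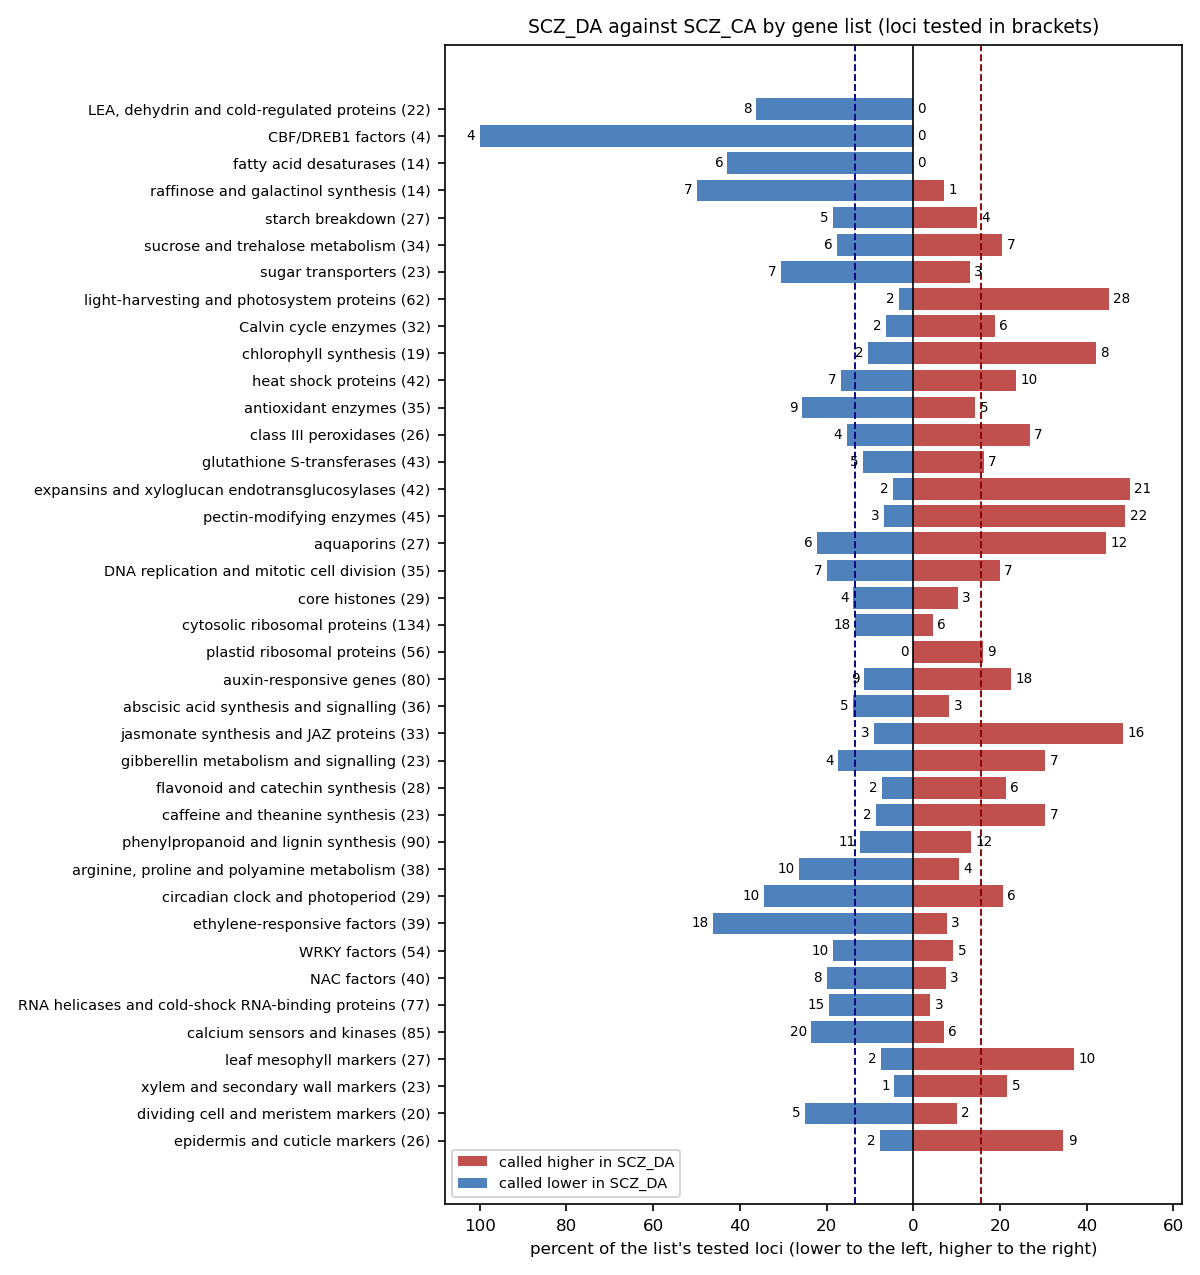
Bars give the percent of the tested loci of each gene group that were called higher in SCZ_DA (right) or lower in SCZ_DA (left) than in SCZ_CA, with the number of loci at the bar's end and the number tested in brackets. Dashed lines mark the shares over all loci tested, 15.6% higher and 13.5% lower, and groups of fewer than 4 tested loci are left out.

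Protective proteins of the cold fell in part. Of 22 tested LEA, dehydrin and cold-regulated loci, 8 fell and 0 rose, with a median log2 fold change of -1.05 against 0.01 over all loci. Their summed level was 3358 ± 3023 FPKM in SCZ_DA and 32657 ± 7207 FPKM in SCZ_CA (SD over 3 libraries each), against 1074 ± 296 FPKM in SCZ_NA. Within SCZ_DA it was 1360.3 and 1877 FPKM in replicates 1 and 2 and 6836 FPKM in replicate 3, all above the range of 741 to 1306 FPKM in SCZ_NA, and 3 of the 22 loci were called above SCZ_NA and 0 below. The most abundant was CSS024403, described as a putative cold-inducible protein, with 497, 158 and 758 FPKM in SCZ_DA, against 25705, 6240.1 and 13279 FPKM in SCZ_CA (log2 fold change -5.14 ± 0.78 SE, adjusted p = 1.7e-04). Its level in SCZ_NA was 487 ± 181 FPKM, and SCZ_DA was not called different from it. LEA protein 3L-1 (CSS015767) had 316, 488 and 1132 FPKM in SCZ_DA and 5326, 11936 and 8604 FPKM in SCZ_CA (log2 fold change -3.93 ± 0.61 SE, adjusted p = 2.0e-04). The locus that joins a dehydrin and dehydrin 1 (CSS013428;CSS013433), hydrophilic proteins thought to guard membranes and proteins against water loss, had 41.5, 46.2 and 75.7 FPKM in SCZ_DA and 3041, 4081 and 1243 FPKM in SCZ_CA (log2 fold change -5.82 ± 0.46 SE, adjusted p = 1.3e-06). No SCZ_DA library reached any SCZ_CA library at these 3 loci. The embryonic protein DC-8 (CSS032854/MSTRG.16969), a LEA-type protein known from carrot embryos, had under 1 FPKM in all 3 SCZ_DA libraries (0.466, 0.388 and 0.516), against 97, 99.8 and 44.1 in SCZ_CA (log2 fold change -7.58 ± 0.60 SE, adjusted p = 1.3e-06).

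All 4 tested CBF/DREB1 factors fell, with a median log2 fold change of -4.54. CSS018720/MSTRG.3218, the most abundant, had 8.83, 37.7 and 105 FPKM in SCZ_DA, against 563, 898 and 439 FPKM in SCZ_CA (log2 fold change -3.81 ± 0.76 SE, adjusted p = 0.0013). CSS018717 had 2.99, 9.02 and 22.5 FPKM in SCZ_DA and 497, 327 and 198 FPKM in SCZ_CA (log2 fold change -5.03 ± 0.70 SE, adjusted p = 9.2e-05). CSS002244 had 2.84, 2.96 and 23.4 FPKM in SCZ_DA and 278, 26.2 and 136 FPKM in SCZ_CA (log2 fold change -4.05 ± 1.01 SE, adjusted p = 0.0060). In all 3 the highest SCZ_DA value was in replicate 3, and at CSS002244 that value came close to the lowest one of SCZ_CA. The fourth, CSS023229, had 0, 0 and 0.0736 FPKM in SCZ_DA and 39.3, 32.4 and 10.8 FPKM in SCZ_CA, with only SCZ_DA replicate 3 above 0 among the warmed leaves. These loci are close relatives, and reads may have been split among them. Early light-induced proteins bind pigment and protect the thylakoid under light stress. The single one tested, early light induced protein 2 (CSS050741), had 8.08, 7.33 and 10.2 FPKM in SCZ_DA, against 11030.0, 417 and 620.1 FPKM in SCZ_CA (log2 fold change -8.96 ± 1.13 SE, adjusted p = 3.9e-05). The fall was set in size by SCZ_CA replicate 1 (log2 fold change -6.18 without SCZ_CA replicate 1, adjusted p = 2.3e-06).

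Some desaturases fell as well. Of 14 tested fatty acid desaturases, which put double bonds into membrane lipids, 6 fell and 0 rose, with a median log2 fold change of -1.22, or -0.75 with a locus absent from 1 group set at its bound. In limma on log2(FPKM + 1) 4 fell and the median was -0.22. A delta(8)-fatty-acid desaturase (CSS031174), an enzyme of sphingolipid desaturation, had 1.58, 2.29 and 3.0 FPKM in SCZ_DA, against 150.4, 304 and 121 FPKM in SCZ_CA (log2 fold change -6.55 ± 0.45 SE, adjusted p = 4.3e-07). The omega-3 desaturase CSS038298, of the kind that makes trienoic fatty acids, had 45.4, 70.6 and 33 FPKM in SCZ_DA and 239, 265 and 124 FPKM in SCZ_CA (log2 fold change -2.25 ± 0.31 SE, adjusted p = 8.1e-05). The more abundant CSS026415 had 121, 162 and 95.4 FPKM in SCZ_DA and 484, 528 and 375 FPKM in SCZ_CA (log2 fold change -2.06 ± 0.28 SE, adjusted p = 6.4e-05). The groups were apart at all 3 desaturases, as at most called loci.

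Raffinose and galactinol synthesis lost 7 of its 14 tested loci and gained 1, with a median log2 fold change of -2.61. Limma on log2(FPKM + 1) gave 5 lower and 2 higher and a median of -0.98. The summed level of the group overlapped, at 399 ± 206 FPKM in SCZ_DA and 538 ± 271 FPKM in SCZ_CA. Galactinol synthase 2 (CSS021111), which makes the galactosyl donor for raffinose, had 17.6, 5.89 and 21.3 FPKM in SCZ_DA and 195, 53.5 and 43.2 FPKM in SCZ_CA (log2 fold change -2.81 ± 0.73 SE, adjusted p = 0.0074). The locus that rose was raffinose synthase 1 (CSS030000), with 57.2, 135 and 85.5 FPKM in SCZ_DA and 31.1, 12.4 and 47.9 FPKM in SCZ_CA (log2 fold change 1.36 ± 0.50 SE, adjusted p = 0.045), a call that was lost without SCZ_CA replicate 1 or 2 or SCZ_DA replicate 2 or 3, among other libraries. Starch breakdown had no common direction, with 4 loci higher and 5 lower of 27. Beta-amylases release maltose from starch, and both named here fell. Chloroplast beta-amylase 3 (CSS003876) had 28.1, 58.2 and 65.3 FPKM in SCZ_DA, against 1467, 608 and 821 FPKM in SCZ_CA (log2 fold change -4.43 ± 0.52 SE, adjusted p = 2.4e-05). Beta-amylase 5 (CSS024024) had 3.81, 5.04 and 9.34 FPKM in SCZ_DA and 62.1, 28.7 and 30.6 FPKM in SCZ_CA (log2 fold change -2.89 ± 0.40 SE, adjusted p = 8.5e-05). The groups did not overlap at either amylase, as at most called loci.

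Sugar transporters and sucrose enzymes also split. Among 23 tested transporters 7 fell and 3 rose, although 7 rose and 6 fell in limma on log2(FPKM + 0.1). A pair of loci for sugar transport protein 13, a proton-coupled hexose carrier of the plasma membrane in Arabidopsis, lost most of their transcript. CSS013998/MSTRG.15094 had 1.6, 0.970 and 4.66 FPKM in SCZ_DA and 78, 31.4 and 45.4 FPKM in SCZ_CA (log2 fold change -4.56 ± 0.76 SE, adjusted p = 3.5e-04). CSS007340 had 1.13, 0.913 and 3.77 FPKM in SCZ_DA and 61.5, 43 and 41.5 FPKM in SCZ_CA (log2 fold change -4.8 ± 0.94 SE, adjusted p = 0.0012). Of 34 loci of sucrose and trehalose metabolism, 7 rose and 6 fell, and in limma on log2(FPKM + 1) 3 rose and 5 fell. Invertase 4 (CSS043854), which splits sucrose into hexoses, had 48.2, 51.7 and 27.5 FPKM in SCZ_DA and 5.89, 7.91 and 8.13 FPKM in SCZ_CA (log2 fold change 2.32 ± 0.36 SE, adjusted p = 2.0e-04). Trehalose-phosphate synthase 5 (CSS033881) was also higher, with 46, 22.9 and 15.3 FPKM in SCZ_DA and 6.49, 4.68 and 9.09 FPKM in SCZ_CA (log2 fold change 1.84 ± 0.41 SE, adjusted p = 0.0029).

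Ethylene-responsive factors fell more often than they rose. Of 39 tested ethylene-responsive factors (ERF), plant transcription factors of the AP2/ERF family, 18 fell and 3 rose, with a median log2 fold change of -1.0. ERF110 (CSS031770) had 0.495, 0.746 and 1.28 FPKM in SCZ_DA, against 249.5, 1490.5 and 168 FPKM in SCZ_CA (log2 fold change -9.71 ± 1.02 SE, adjusted p = 1.0e-05). ERF4 (CSS043693), a repressor in Arabidopsis, had 9.67, 4.43 and 3.74 FPKM in SCZ_DA and 84.8, 166 and 62 FPKM in SCZ_CA (log2 fold change -4.3 ± 0.60 SE, adjusted p = 9.4e-05). The RAP2-7-like locus CSS023205 had 23.5, 31.3 and 15.6 FPKM in SCZ_DA and 134, 147 and 97.7 FPKM in SCZ_CA (log2 fold change -2.61 ± 0.23 SE, adjusted p = 3.1e-06). At all 3 the groups were apart, which for ERF110 was a condition of its choice among the largest falls. SCZ_CA replicate 2 was the highest library at each. WRKY factors, many of them defense regulators, had 10 lower and 5 higher of 54, but 6 lower and 7 higher in limma on log2(FPKM + 1). WRKY33 (CSS020651) had 9.04, 11.2 and 16.5 FPKM in SCZ_DA and 172, 199 and 67 FPKM in SCZ_CA (log2 fold change -3.72 ± 0.53 SE, adjusted p = 1.0e-04). NAC factors had 8 lower and 3 higher of 40, but 5 lower and 8 higher with no scaling beyond the total count. One of them, CSS004342, had 9.08, 4.85 and 8.13 FPKM in SCZ_DA and 229, 42.1 and 122 FPKM in SCZ_CA (log2 fold change -4.32 ± 0.68 SE, adjusted p = 2.3e-04).

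The circadian clock and photoperiod group had 10 lower and 6 higher of 29 loci. Gigantea (CSS034243), a clock-associated protein that peaks late in the day in Arabidopsis, had 1.82, 1.13 and 2.04 FPKM in SCZ_DA, against 642, 199 and 175 FPKM in SCZ_CA (log2 fold change -7.8 ± 0.57 SE, adjusted p = 7.4e-07). The pseudo-response regulator APRR5 (CSS050021) had 4.63, 1.04 and 2.68 FPKM in SCZ_DA and 427, 348 and 277 FPKM in SCZ_CA (log2 fold change -7.13 ± 0.60 SE, adjusted p = 1.9e-06). Both were also lower in SCZ_DA than in SCZ_NA, where Gigantea had 19.3 ± 2.1 FPKM and APRR5 had 9.23 ± 3.44 FPKM. Transcripts of these genes cycle over the day, and the hour of sampling is not given in the sources used here, so its part in the result was not tested.

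Calcium sensors and kinases fell at 20 of 85 loci and rose at 6, with a median log2 fold change of -0.58. CML38 (CSS044844), a calmodulin-like calcium sensor induced by wounding in Arabidopsis, had 0.264, 0.120 and 0 FPKM in SCZ_DA and 26, 48 and 13.5 FPKM in SCZ_CA (log2 fold change -7.7 ± 1.28 SE, adjusted p = 3.4e-04). Calcium-dependent protein kinase 9 (CSS046010) had 11.7, 18 and 12.7 FPKM in SCZ_DA and 37.7, 79.4 and 34.6 FPKM in SCZ_CA (log2 fold change -2.03 ± 0.30 SE, adjusted p = 1.6e-04). RNA helicases and cold-shock RNA-binding proteins, which loosen RNA structures that the cold stabilizes, fell at 15 of 77 loci and rose at 3. Glycine-rich protein GRP1A-like (CSS050323) had 174, 191 and 262 FPKM in SCZ_DA and 737, 1159.5 and 801 FPKM in SCZ_CA (log2 fold change -2.29 ± 0.44 SE, adjusted p = 9.4e-04). DEAD-box helicase 37 (CSS006495) had 15.7, 18.8 and 20.4 FPKM in SCZ_DA and 43.7, 66.6 and 38 FPKM in SCZ_CA (log2 fold change -1.61 ± 0.26 SE, adjusted p = 2.9e-04).

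Heat shock proteins were mixed, with 10 higher and 7 lower of 42, and yet their summed level was 959 ± 71.7 FPKM in SCZ_DA, 3187 ± 1053 FPKM in SCZ_CA and 4624 ± 393 FPKM in SCZ_NA. The most abundant called members fell. Heat shock cognate 70 kDa protein 1-like (CSS007224) had 49.8, 25.2 and 22.8 FPKM in SCZ_DA, against 593, 1203 and 1496 FPKM in SCZ_CA (log2 fold change -5.3 ± 0.55 SE, adjusted p = 8.6e-06). Heat shock protein 70 (CSS041491) had 113, 179.7 and 127 FPKM in SCZ_DA and 409, 1003 and 749.9 FPKM in SCZ_CA (log2 fold change -2.58 ± 0.34 SE, adjusted p = 5.9e-05). Heat shock cognate protein 80 (CSS000992), a chaperone of the HSP90 family, had 223, 271 and 235 FPKM in SCZ_DA and 379.9, 701 and 529 FPKM in SCZ_CA (log2 fold change -1.34 ± 0.25 SE, adjusted p = 7.8e-04). Each of the 3 was also below its level before the cold, 613 ± 152, 783 ± 151 and 764 ± 107 FPKM in SCZ_NA.

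Among 35 antioxidant enzymes 9 fell and 5 rose, and with limma on log2(FPKM + 0.1) 7 fell and 10 rose. Glutathione peroxidase (CSS029771), which reduces lipid peroxides, had 148, 109.9 and 125 FPKM in SCZ_DA and 476, 447 and 451 FPKM in SCZ_CA (log2 fold change -2.03 ± 0.20 SE, adjusted p = 6.5e-06). Catalase isozyme 1 (CSS000510), which breaks down hydrogen peroxide in peroxisomes, went the other way, with 471, 434 and 467 FPKM in SCZ_DA and 130.2, 77 and 78.3 FPKM in SCZ_CA (log2 fold change 2.09 ± 0.32 SE, adjusted p = 2.0e-04). Polyamines are made from arginine through putrescine, with S-adenosylmethionine decarboxylase supplying the aminopropyl groups. Of 38 loci of arginine, proline and polyamine metabolism 10 fell and 4 rose, and the same limma fit gave 7 of each. S-adenosylmethionine decarboxylase CSS051420 had 65.3, 67.1 and 80.5 FPKM in SCZ_DA and 153, 640.0 and 207 FPKM in SCZ_CA (log2 fold change -2.41 ± 0.42 SE, adjusted p = 4.9e-04). Spermidine synthase 1 (CSS012142) had 30.7, 42.3 and 55.4 FPKM in SCZ_DA and 93.3, 114 and 68.9 FPKM in SCZ_CA (log2 fold change -1.28 ± 0.21 SE, adjusted p = 3.0e-04). Both were lower in every SCZ_DA library than in any SCZ_CA library.

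Cytosolic ribosomal proteins fell at 18 of 134 loci and rose at 6, shares of 13.4% and 4.48%, so that falls were about as frequent as over all loci. Their median log2 fold change was -0.37, and limma on log2(FPKM + 1) called 8 higher and 8 lower. The 3 most abundant called loci were 40S proteins S15 (CSS032398), S3-3-like (CSS032219) and S9-2 (CSS005543), at log2 fold changes of -1.36, -1.07 and -1.08 with adjusted p = 9.4e-04, 0.0017 and 0.0075. S15 had 156, 144 and 196 FPKM in SCZ_DA and 305, 284 and 509 FPKM in SCZ_CA. All 3 missed the 2-fold threshold without SCZ_CA replicate 3, at -0.91, -0.83 and -0.76. S9-2 also missed it without SCZ_DA replicate 1, at -0.99. With no scaling or in limma, S3-3-like and S9-2 were not called. Of 36 loci of abscisic acid synthesis and signalling, 5 fell and 3 rose, while limma on log2(FPKM + 1) gave 2 falls and 4 rises. ABI5-like protein 5 (CSS000559), a bZIP factor of that pathway, had 35.7, 28 and 40.6 FPKM in SCZ_DA and 94.8, 89 and 75 FPKM in SCZ_CA (log2 fold change -1.49 ± 0.20 SE, adjusted p = 7.7e-05).

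**Figure D3:**
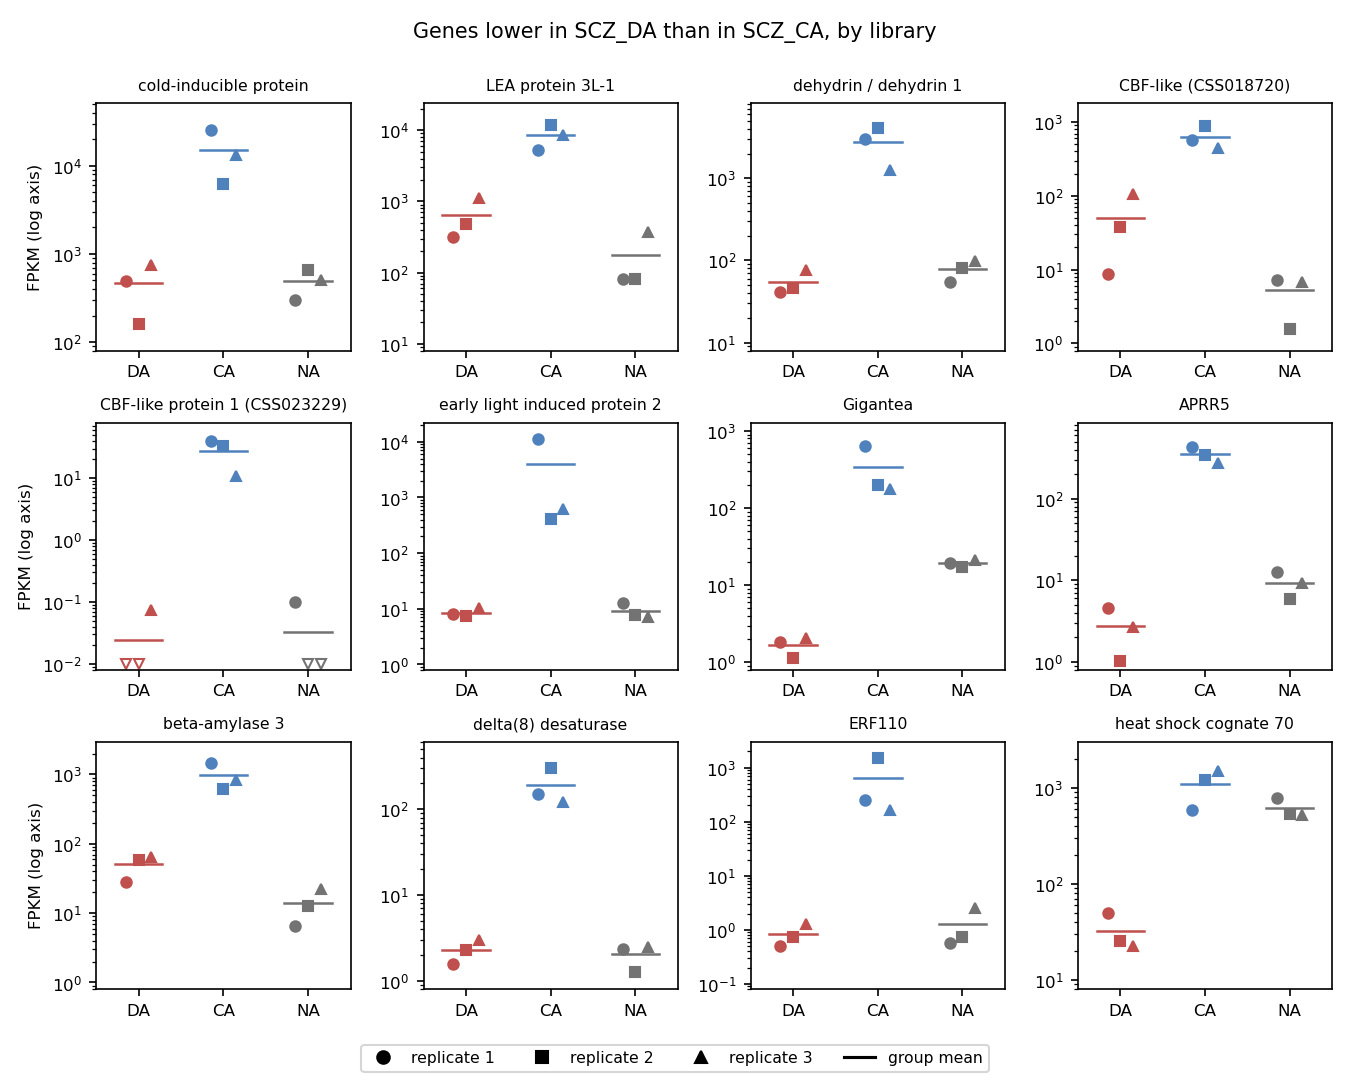
FPKM on a log axis for 12 genes that fell, in the libraries of SCZ_DA (left), SCZ_CA (middle) and SCZ_NA (right), with marker shapes for replicates, lines for group means and open triangles at the axis foot for a value of 0. SCZ_DA lies below SCZ_CA in every panel, and for Gigantea, APRR5 and heat shock cognate 70 it also lies below SCZ_NA.

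Many genes of the photosynthetic apparatus rose. Of 62 tested light-harvesting and photosystem loci 28 rose and 2 fell, with a median log2 fold change of 1.13. Without SCZ_CA replicate 2 and SCZ_DA replicate 2 together, 23 rose and 5 fell and the median was 0.67. The oxygen-evolving enhancer protein CSS019777, part of the water-splitting side of photosystem II, had 3807, 3669.7 and 3349 FPKM in SCZ_DA, against 675, 393 and 812 FPKM in SCZ_CA (log2 fold change 2.31 ± 0.36 SE, adjusted p = 2.0e-04). Plastocyanin (CSS016818), the copper protein that carries electrons to photosystem I, had 2238, 2039.6 and 973 FPKM in SCZ_DA and 158, 86.1 and 192 FPKM in SCZ_CA (log2 fold change 3.37 ± 0.48 SE, adjusted p = 1.1e-04). Photosystem I subunit II (CSS014004) had 1702, 1586 and 729 FPKM in SCZ_DA and 305, 174 and 418 FPKM in SCZ_CA (log2 fold change 1.93 ± 0.42 SE, adjusted p = 0.0026). The groups were apart at all 3, as at most called loci. SCZ_DA replicate 3 was the lowest of its group at each of them. The summed level of the list was 21449 ± 4485 FPKM in SCZ_DA, 7729 ± 4386 FPKM in SCZ_CA and 46677 ± 7651 FPKM in SCZ_NA.

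Calvin cycle enzymes rose at 6 of 32 loci (18.75%) and fell at 2 (6.25%), with a median log2 fold change of 0.57. Rises were thus little more frequent than the 15.6% over all loci. With the spread of the groups compared, 2 rose and 1 fell. The Rubisco small subunit CSS017875, one of the most abundant transcripts, had 21869, 17942 and 13145 FPKM in SCZ_DA, against 5412, 3539.6 and 7140.5 FPKM in SCZ_CA (log2 fold change 1.5 ± 0.40 SE, adjusted p = 0.0085). That call was lost with the spread of the 9 SCZ libraries (edgeR adjusted p = 0.061) or of the groups compared (0.067). It was also lost without SCZ_CA replicate 2 and SCZ_DA replicate 2 together (0.053). Rubisco activase (CSS047135), which frees the enzyme's active site, had 695, 896 and 620.1 FPKM in SCZ_DA and 23.9, 27.7 and 96.1 FPKM in SCZ_CA (log2 fold change 3.63 ± 0.55 SE, adjusted p = 1.8e-04). Transketolase (CSS015987) had 719.6, 842 and 669 FPKM in SCZ_DA and 210.2, 180.5 and 196 FPKM in SCZ_CA (log2 fold change 1.73 ± 0.33 SE, adjusted p = 1.0e-03). None of the 3 overlapped between the groups, as was usual among called loci. Chlorophyll synthesis rose at 8 of 19 loci and fell at 2. Protochlorophyllide reductase (CSS013120), the light-dependent step, had 114, 496 and 84.3 FPKM in SCZ_DA and 3.29, 15 and 8.45 FPKM in SCZ_CA (log2 fold change 4.45 ± 0.84 SE, adjusted p = 8.9e-04). Delta-aminolevulinic acid dehydratase (CSS020929) had 152, 223 and 169.8 FPKM in SCZ_DA and 43.4, 80 and 65.6 FPKM in SCZ_CA (log2 fold change 1.32 ± 0.26 SE, adjusted p = 0.0011). Plastid ribosomal proteins rose at 9 of 56 loci and fell at 0, shares of 16.1% and 0%, with a median log2 fold change of 0.46. Their rises were about as frequent as over all loci. The 50S protein L5 (CSS041091) had 296, 319.9 and 258 FPKM in SCZ_DA and 64.3, 20.2 and 68.5 FPKM in SCZ_CA (log2 fold change 2.3 ± 0.40 SE, adjusted p = 4.4e-04).

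Cell wall genes rose often. Expansins loosen the wall and xyloglucan endotransglucosylases (XTH) cut and rejoin its hemicellulose. Of 42 such loci 21 rose and 2 fell, with a median log2 fold change of 1.62. In limma on log2(FPKM + 1) 14 rose and 2 fell and the median was 0.85, and for the pectin-modifying enzymes described next it was 0.91. XTH9 (CSS008830) had 176, 1077 and 344 FPKM in SCZ_DA, against 3.68, 17.5 and 2.52 FPKM in SCZ_CA (log2 fold change 5.88 ± 0.97 SE, adjusted p = 3.1e-04). CSS038581 had 69.8, 186 and 199 FPKM in SCZ_DA and 3.49, 4.79 and 3.08 FPKM in SCZ_CA (log2 fold change 5.13 ± 0.46 SE, adjusted p = 3.1e-06). CSS043738 had 53, 124 and 23.8 FPKM in SCZ_DA and 1.15, 0.940 and 0.913 FPKM in SCZ_CA (log2 fold change 5.84 ± 0.64 SE, adjusted p = 1.3e-05). XTH9 was highest in SCZ_DA replicate 2, whereas CSS038581 was high in replicates 2 and 3. No value overlapped between the groups, which for XTH9 and CSS043738 was a condition of their choice among the largest rises. The summed level of the list was 1301 ± 788 FPKM in SCZ_DA and 179 ± 39.6 FPKM in SCZ_CA.

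Pectin-modifying enzymes rose at 22 of 45 loci and fell at 3, with a median log2 fold change of 1.70. Without SCZ_CA replicate 2 and SCZ_DA replicate 2 together, 11 rose and 3 fell and the median was 0.57, and for expansins and XTH 11 rose and 2 fell with a median of 1.22. The invertase/pectin methylesterase inhibitor family protein CSS014243 was even across replicates, with 418, 496 and 495 FPKM in SCZ_DA and 42, 44.2 and 39.8 FPKM in SCZ_CA (log2 fold change 3.29 ± 0.42 SE, adjusted p = 4.1e-05). The polygalacturonase CSS028485 had 24.7, 51.1 and 19.3 FPKM in SCZ_DA and 0.721, 4.17 and 0.677 FPKM in SCZ_CA (log2 fold change 3.91 ± 0.93 SE, adjusted p = 0.0042). Pectinesterase 61 (CSS047843) rested on 1 library, with 7.19, 103 and 3.08 FPKM in SCZ_DA and 5.09, 7.49 and 1.77 FPKM in SCZ_CA, where the groups overlapped. Its log2 fold change was 2.77 with all libraries and -0.02 without SCZ_DA replicate 2, adjusted p = 0.997. That call was also lost without any 1 of the 3 SCZ_CA libraries.

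Aquaporins, the water channels of plant membranes, rose at 12 of 27 loci and fell at 6. Aquaporin 7 (CSS011095) had 323, 325 and 539.5 FPKM in SCZ_DA and 85.9, 51.6 and 85 FPKM in SCZ_CA (log2 fold change 2.23 ± 0.34 SE, adjusted p = 1.9e-04). Aquaporin 3 (CSS027587) had 183, 292 and 194 FPKM in SCZ_DA and 1584, 609 and 1012 FPKM in SCZ_CA (log2 fold change -2.45 ± 0.33 SE, adjusted p = 6.6e-05). Aquaporin 6 (CSS024016) had 1.54, 0.940 and 1.24 FPKM in SCZ_DA and 283, 242 and 24 FPKM in SCZ_CA (log2 fold change -7.3 ± 1.35 SE, adjusted p = 7.4e-04). Members of the family thus moved both ways, with 11 or 12 higher and 6 lower under each scaling and limma fit run. Class III peroxidases, which act in the wall, rose at 7 of 26 loci and fell at 4. Peroxidase 64 (CSS046619) had 6.1, 30 and 3.3 FPKM in SCZ_DA and 0.445, 1.42 and 0.389 FPKM in SCZ_CA (log2 fold change 3.92 ± 0.71 SE, adjusted p = 6.7e-04). Peroxidase 4 (CSS039471) had 35.6, 88.6 and 65.1 FPKM in SCZ_DA and 18, 10.1 and 1.01 FPKM in SCZ_CA (log2 fold change 2.58 ± 0.69 SE, adjusted p = 0.0090). That call was lost with the spread of the groups compared (edgeR adjusted p = 0.073).

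Growth by cell division gave no such picture. DNA replication and mitosis had 7 loci higher and 7 lower of 35, and histones 3 higher and 4 lower of 29. A histone H1-like protein (CSS040635) had 224, 244 and 890.0 FPKM in SCZ_DA and 15, 7.39 and 12.9 FPKM in SCZ_CA (log2 fold change 5.09 ± 0.58 SE, adjusted p = 1.8e-05). Histone H2A (CSS024940) had 155, 127 and 124 FPKM in SCZ_DA and 20.6, 21.1 and 31.1 FPKM in SCZ_CA (log2 fold change 2.27 ± 0.33 SE, adjusted p = 1.2e-04). Histone H3 (CSS052545) fell, with 17.5, 19.5 and 18.6 FPKM in SCZ_DA and 48.5, 47.4 and 63.9 FPKM in SCZ_CA (log2 fold change -1.73 ± 0.20 SE, adjusted p = 1.8e-05).

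Among hormone groups, jasmonate synthesis and JAZ proteins had 16 of 33 loci higher and 3 lower, with a median log2 fold change of 1.34. Lipoxygenases open the pathway from linolenic acid to jasmonate. Lipoxygenase CSS053356 had 93.5, 85.7 and 109 FPKM in SCZ_DA, against 4.94, 5.31 and 12.1 FPKM in SCZ_CA (log2 fold change 3.45 ± 0.40 SE, adjusted p = 2.0e-05). CSS009232 had 68.4, 55.3 and 35.5 FPKM in SCZ_DA and 8.22, 10.2 and 10.0 FPKM in SCZ_CA (log2 fold change 2.28 ± 0.27 SE, adjusted p = 2.5e-05). The most abundant, CSS011673, had 136, 201 and 151 FPKM in SCZ_DA and 35.9, 26.8 and 60.7 FPKM in SCZ_CA (log2 fold change 1.75 ± 0.46 SE, adjusted p = 0.0081). The descriptions do not say whether these 3 act on the carbon that leads to jasmonate. Auxin-responsive genes rose at 18 of 80 loci and fell at 9, and at 9 and 10 without SCZ_CA replicate 2 and SCZ_DA replicate 2 together. An auxin-repressed protein (CSS035508), of a family linked to dormancy in other plants, had 29.5, 71.5 and 352 FPKM in SCZ_DA and 8.6, 4.19 and 7.02 FPKM in SCZ_CA (log2 fold change 4.34 ± 0.75 SE, adjusted p = 4.8e-04). SAUR36 (CSS041072) fell, with 41.3, 12 and 8.01 FPKM in SCZ_DA and 86.1, 63.3 and 91.6 FPKM in SCZ_CA (log2 fold change -2.17 ± 0.52 SE, adjusted p = 0.0048). Its call was lost with the spread of the groups compared (edgeR adjusted p = 0.0503).

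Gibberellins promote elongation, and gibberellin 2-oxidases inactivate them. The gibberellin group had 7 loci higher and 4 lower of 23. Gibberellin 2-oxidase 1 (CSS043579) had 4.67, 1.3 and 4.48 FPKM in SCZ_DA, against 283, 24 and 41.3 FPKM in SCZ_CA (log2 fold change -5.15 ± 0.84 SE, adjusted p = 3.0e-04). Gibberellin 20-oxidase (CSS052891), a synthesis enzyme, overlapped between the groups, with 12.9, 24.5 and 43.2 FPKM in SCZ_DA and 102, 21.6 and 107 FPKM in SCZ_CA. Its call (log2 fold change -1.72 ± 0.53 SE, adjusted p = 0.019) was lost without SCZ_CA replicate 3 (-1.25), SCZ_DA replicate 1 (-1.39) or SCZ_DA replicate 2 (-1.63). Snakin-2 (CSS021097), a small cysteine-rich peptide, was held almost entirely by SCZ_CA replicate 2, with 0, 0 and 0 FPKM in SCZ_DA and 0, 129 and 0.122 FPKM in SCZ_CA. It was at least 300.4-fold lower in SCZ_DA against a floor of 3 counts per library, and was not called without SCZ_CA replicate 2.

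Some loci in the groups of tea metabolites rose. Catechins are flavan-3-ols, and theanine is an amide of glutamate made by an enzyme related to glutamine synthetase. Of 28 flavonoid and catechin loci 6 rose (21.4%, against 15.6% over all loci) and 2 fell, with a median log2 fold change of 0.18. Their summed level overlapped, at 3530 ± 2117 FPKM in SCZ_DA and 2774 ± 1564 FPKM in SCZ_CA. Without SCZ_CA replicate 2 and SCZ_DA replicate 2 together, 6 rose and 1 fell and the median was 1.44. Flavonoid 3',5'-hydroxylase (CSS002582), which sets the gallocatechin branch, had 326, 283 and 273 FPKM in SCZ_DA, against 7.77, 16.8 and 7.78 FPKM in SCZ_CA (log2 fold change 4.59 ± 0.50 SE, adjusted p = 1.3e-05). Chalcone isomerase (CSS001609) had 32.4, 138 and 22.9 FPKM in SCZ_DA and 2.11, 2.54 and 1.97 FPKM in SCZ_CA (log2 fold change 4.64 ± 0.64 SE, adjusted p = 7.7e-05). Anthocyanidin reductase (CSS009887), the step to epicatechin, had 352, 382 and 387 FPKM in SCZ_DA and 119, 53.5 and 119 FPKM in SCZ_CA (log2 fold change 1.74 ± 0.28 SE, adjusted p = 2.4e-04). All 3 were apart, as most called loci were. The caffeine and theanine group rose at 7 of 23 loci and fell at 2. The called loci named were glutamine synthetases, so they do not show a rise of a caffeine or theanine synthase. The leaf isozyme CSS030824 had 270.1, 269.9 and 202 FPKM in SCZ_DA and 75.2, 34.4 and 83.8 FPKM in SCZ_CA (log2 fold change 1.73 ± 0.31 SE, adjusted p = 5.7e-04), and CSS018046 changed by 1.32 on the log2 scale. Phenylpropanoid and lignin synthesis was even, with 12 higher and 11 lower of 90.

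**Figure D4:**
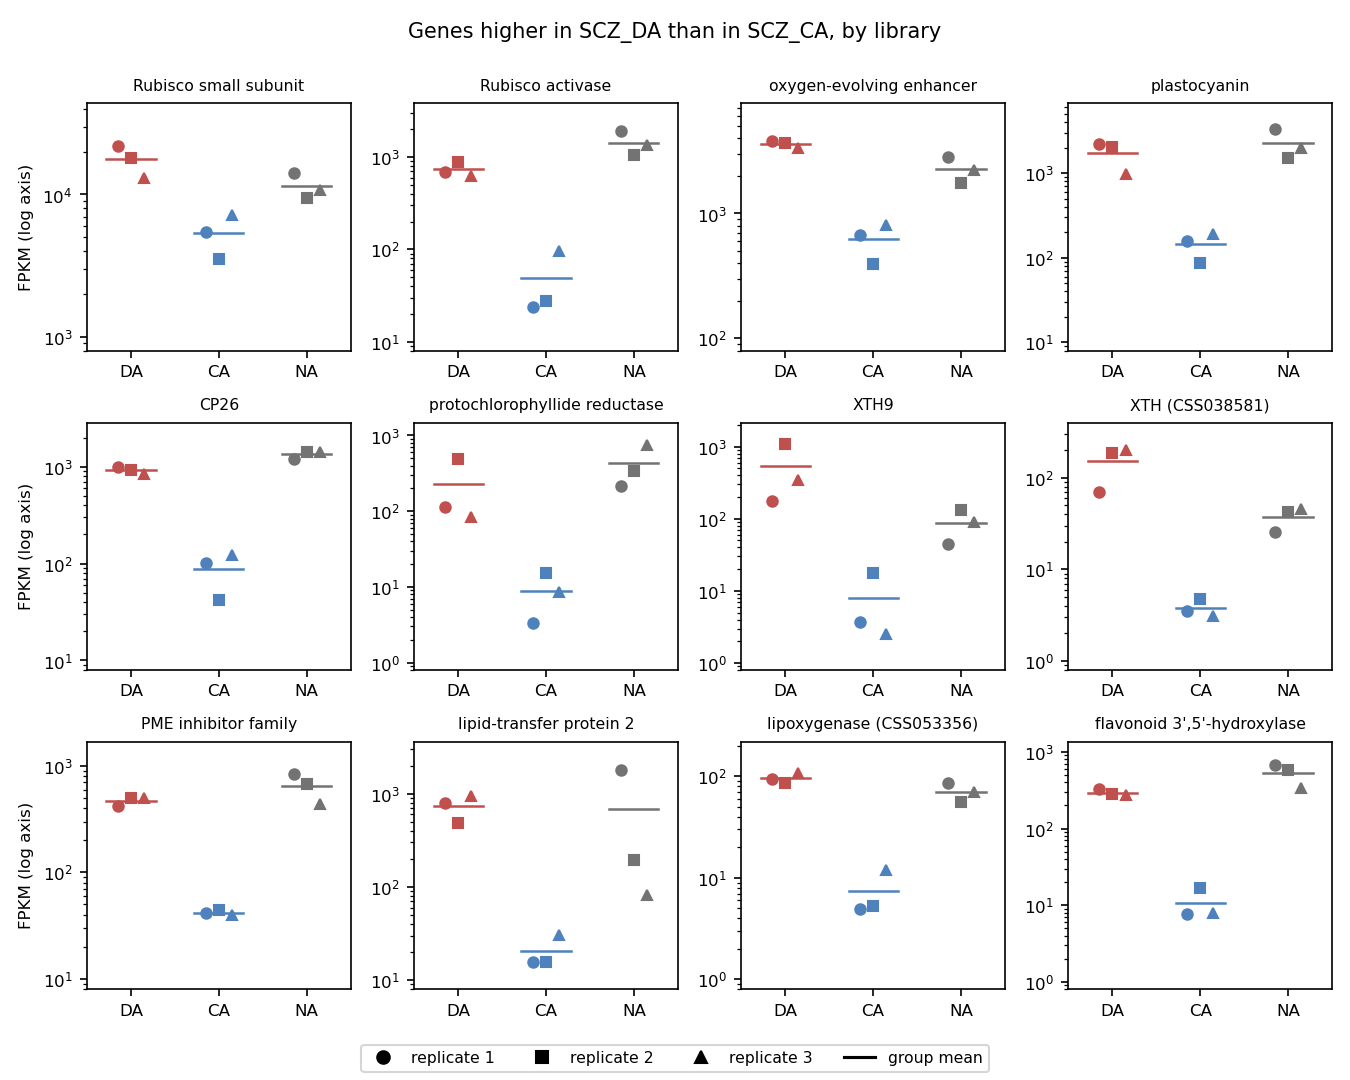
FPKM on a log axis for 12 genes that rose, in the libraries of SCZ_DA (left), SCZ_CA (middle) and SCZ_NA (right), with marker shapes for replicates and lines for group means. SCZ_DA lies above SCZ_CA in every panel, and protochlorophyllide reductase and XTH9 are highest within SCZ_DA in replicate 2.

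The 15 largest rises among abundant loci included wall, secreted and sugar-conjugating proteins. These and the 15 largest falls were taken only from called loci whose groups did not overlap. Wound-induced protein 1 (CSS033454) had no count in SCZ_CA and 3.35, 28.7 and 8.46 FPKM in SCZ_DA, at least 126-fold higher against a floor of 3 counts per library (adjusted p = 1.1e-04). A pair of germin-like proteins of subfamily 1 member 18, secreted proteins of the cupin family, rose together. CSS046823 had 254, 119 and 105 FPKM in SCZ_DA and 1.55, 1.1 and 3.15 FPKM in SCZ_CA (log2 fold change 6.12 ± 0.99 SE, adjusted p = 2.7e-04). CSS046822/MSTRG.12313 had 172, 77.5 and 71.5 FPKM in SCZ_DA and 1.03, 1.87 and 2.33 FPKM in SCZ_CA. These copies have consecutive identifiers and the same description, so reads may have been shared between them. Even across SCZ_DA was CSS033191, described as a desacetoxyvindoline 4-hydroxylase, a type of 2-oxoglutarate-dependent dioxygenase, with 10.3, 10.1 and 10.5 FPKM in SCZ_DA and 0.0679, 0.404 and 0 FPKM in SCZ_CA (log2 fold change 5.91 ± 1.0 SE, adjusted p = 3.8e-04). The glycosyltransferases UGT88A1 (CSS002986) and CSS007308, soyasapogenol B glucuronide galactosyltransferase-like, had log2 fold changes of 5.67 and 5.65. ERF039 (CSS047666) stood against the fall of its family, with 21.7, 28.4 and 2.31 FPKM in SCZ_DA and 0.381, 0.313 and 0.304 FPKM in SCZ_CA (log2 fold change 5.49 ± 0.90 SE, adjusted p = 3.0e-04). The secreted peptide RALF-like 34 (CSS032506) had 8.13, 24.7 and 1.33 FPKM in SCZ_DA and 0.142, 0.435 and 0.0605 FPKM in SCZ_CA.

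Other rises were uneven among the SCZ_DA libraries. Protein E6 (CSS021166), known from cotton fiber, had 26, 251 and 2.29 FPKM in SCZ_DA and 1.9, 0.704 and 0.815 FPKM in SCZ_CA, and its log2 fold change was 6.12 with all libraries and 3.49 without SCZ_DA replicate 2, adjusted p = 0.0035. An R2R3 MYB factor (CSS045240) had 5.78, 49.5 and 2.51 FPKM in SCZ_DA and 0.185, 0.269 and 0.117 FPKM in SCZ_CA, at 6.4 and at 4.27 without SCZ_DA replicate 2, adjusted p = 3.1e-05. Polygalacturonase 1 beta-like protein 1 (CSS028593) had 4.83, 39.1 and 1.47 FPKM in SCZ_DA and 0.0257, 0.0951 and 0.109 FPKM in SCZ_CA, at 7.27 and at 5.09 without SCZ_DA replicate 2, adjusted p = 2.7e-04. The pathogenesis-related family protein CSS033078 lost its call, with 0.899, 49.5 and 1.37 FPKM in SCZ_DA and 0.0655, 0.385 and 0.143 FPKM in SCZ_CA, at 6.2 and at 2.39 without SCZ_DA replicate 2, adjusted p = 0.076. The trihelix factor GT-2-like (CSS009411) was uneven within SCZ_DA, with 14, 30.2 and 0.261 FPKM in SCZ_DA and 0.0348, 0 and 0 FPKM in SCZ_CA (adjusted p = 0.036). It was not called without any 1 of the 3 SCZ_CA libraries, SCZ_DA replicate 1 or SCZ_DA replicate 2 (adjusted p up to 0.0973).

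Among the 15 largest falls, beside those above, several were highest by far in SCZ_CA replicate 2. LOB domain-containing protein 40-like (CSS002835) had 0.0842, 0 and 0 FPKM in SCZ_DA and 0.977, 142 and 17.8 FPKM in SCZ_CA, at a log2 fold change of -10.92 and of -8.58 without SCZ_CA replicate 2, adjusted p = 0.0049. Cytochrome P450 71D9 (CSS048501) had 0.0383, 0 and 0.181 FPKM in SCZ_DA and 0.769, 60.7 and 0.508 FPKM in SCZ_CA, at -8.22 and at -3.23 without SCZ_CA replicate 2, adjusted p = 0.11, where the call was lost. The call was kept at the following 3 genes without that library, at a smaller fold. A glutathione S-transferase (CSS027109), an enzyme of detoxification, had 2.81, 0.775 and 1.25 FPKM in SCZ_DA and 23.3, 703 and 28.6 FPKM in SCZ_CA, at -7.42 and at -4.21 without SCZ_CA replicate 2, adjusted p = 3.1e-04. The factor ABR1 (CSS034229) had 0.276, 0 and 0.819 FPKM in SCZ_DA and 8.12, 157 and 6.96 FPKM in SCZ_CA, at -7.38 and at -4.49 without SCZ_CA replicate 2, adjusted p = 0.016. A 14-3-3 protein (CSS032780) had 0.229, 0 and 0 FPKM in SCZ_DA and 1.62, 26.8 and 2.7 FPKM in SCZ_CA, at -7.14 and at -4.96 without SCZ_CA replicate 2, adjusted p = 0.023. Well above SCZ_DA in all 3 SCZ_CA libraries were a reticuline oxidase-like protein (CSS017922), with 0.640, 0.415 and 0.882 FPKM in SCZ_DA and 47.3, 243 and 18 FPKM in SCZ_CA, and the glycosyltransferase UGT73A20 (CSS007690), with 1.15, 1.1 and 0.463 FPKM in SCZ_DA and 85, 297 and 39.5 FPKM in SCZ_CA.

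Single libraries also moved the size, though not the call, of further genes described above by more than 1.5-fold. Without SCZ_DA replicate 2 the log2 fold change was 4.92 for XTH9 (CSS008830), 3.3 for protochlorophyllide reductase (CSS013120), 3.49 for chalcone isomerase (CSS001609), 2.51 for peroxidase 64 (CSS046619), 4.28 for RALF-like 34 (CSS032506), 4.7 for CSS007308 and 5.1 for CSS043738. Without SCZ_DA replicate 3 it was -4.99, -6.02 and -5.85 for the CBF loci CSS018720/MSTRG.3218, CSS018717 and CSS002244, so that their falls were larger. SCZ_DA replicate 3 was thus the library with the most CBF transcript among the warmed leaves at these loci. Its omission gave -4.66 for LEA protein 3L-1 (CSS015767), -5.51 and -5.76 for the sugar transport loci CSS013998/MSTRG.15094 and CSS007340, 2.69 for the auxin-repressed protein (CSS035508) and 4.09 for the histone H1-like protein (CSS040635). Without SCZ_DA replicate 1 it was -3.23 for SAUR36 (CSS041072) and -8.66 for CML38 (CSS044844). Without SCZ_CA replicate 1 it was -7.04 for Gigantea (CSS034243), -1.91 for galactinol synthase 2 (CSS021111), -3.48 for gibberellin 2-oxidase 1 (CSS043579), -3.34 for CSS002244 and 3.33 for peroxidase 4 (CSS039471). The cold libraries mattered in the same way. Without SCZ_CA replicate 2 it was -8.11 for ERF110 (CSS031770), -1.56 for S-adenosylmethionine decarboxylase (CSS051420), -5.77 for the reticuline oxidase-like protein (CSS017922), -6.25 for UGT73A20 (CSS007690), 5.27 for the polygalacturonase CSS028485 and 8.12 for CSS033191. Without SCZ_CA replicate 3 it was 4.74 for Rubisco activase (CSS047135), 4.14 for lipoxygenase CSS053356 and 6.83 for the germin-like protein CSS046823.

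Markers of cell types were looked at as well. Those of the leaf mesophyll are photosynthesis genes, among them chlorophyll a-b binding proteins, the Rubisco small subunit and Rubisco activase. They are therefore not independent of the photosynthesis groups above. None of the 27 leaf mesophyll markers was at 0 in all 6 libraries. The same held for the 23 xylem and 2 root markers, and only loci past the FPKM filter were counted. This therefore does not identify the tissue. The summed level of the mesophyll markers ranged from 9626 to 15748 FPKM in SCZ_DA and from 2882 to 9760 FPKM in SCZ_CA. Of these markers 10 rose and 2 fell, and 7 rose and 4 fell without SCZ_CA replicate 2 and SCZ_DA replicate 2 together. Epidermis and cuticle markers rose at 9 of 26 loci and fell at 2, with a median log2 fold change of 1.38, or 1.03 with loci absent from 1 group at their bound. Their sum ranged from 1450 to 2714 FPKM in SCZ_DA and from 329 to 470.2 FPKM in SCZ_CA, and 1 of the markers was at 0 in all 6 libraries. Non-specific lipid-transfer protein 2 (CSS004944), a secreted protein of the epidermis, had 795, 487 and 941 FPKM in SCZ_DA and 15.8, 15.6 and 30.4 FPKM in SCZ_CA (log2 fold change 4.95 ± 1.06 SE, adjusted p = 0.0022). Xylem and secondary wall markers rose at 5 of 23 loci and fell at 1, with sums from 78.2 to 135 FPKM in SCZ_DA and from 38.9 to 74.8 FPKM in SCZ_CA. The glucuronoxylan enzyme IRX7 (CSS048722) had 32.3, 46.8 and 28.8 FPKM in SCZ_DA and 7.56, 5.13 and 7.6 FPKM in SCZ_CA (log2 fold change 2.2 ± 0.24 SE, adjusted p = 1.1e-05). Markers of dividing cells overlapped, with sums from 416 to 507 FPKM in SCZ_DA and from 452 to 576 FPKM in SCZ_CA, 2 of 20 markers at 0 throughout, 2 higher and 5 lower. The 2 root markers tested summed to between 19.3 and 26.4 FPKM in SCZ_DA and between 6.33 and 11.3 FPKM in SCZ_CA. The part of such shifts in the gene results was not tested.

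SCZ_DA leaves, after 7 warm days, differed from never chilled leaves at some genes. The never chilled leaves were sampled on day 0 and SCZ_DA on day 21. Seedling age and sampling day thus differ as well as the past cold, and these cannot be told apart. SCZ_DA differed from SCZ_NA at 879 loci (3.03%), 420 higher (1.45%) and 459 lower (1.58%). The comparison shares the SCZ_DA libraries with that against SCZ_CA. The number was 16 when the spread was taken from the 9 SCZ libraries, 50 when it was taken from the groups compared, 202 without SCZ_DA replicate 3, 374 without SCZ_NA replicate 2 and 396 without SCZ_NA replicate 3. Of the 140 genes named by the selection rule, 12 were called here, and all 12 calls were lost with the spread of the 9 SCZ libraries. Above the level before the cold were CBF-like CSS018720/MSTRG.3218 at a log2 difference of 3.16 (adjusted p = 0.032), beta-amylase 3 (CSS003876) at 1.87 (adjusted p = 0.039) and beta-amylase 5 (CSS024024) at 2.09 (adjusted p = 0.011). GRP1A-like (CSS050323) was at 1.7 (adjusted p = 0.040) and the XTH CSS038581 at 1.99 (adjusted p = 0.016). Below it were heat shock cognate 70 (CSS007224) at -4.34 (adjusted p = 8.8e-04), heat shock protein 70 (CSS041491) at -2.54 (adjusted p = 0.0015) and heat shock cognate 80 (CSS000992) at -1.7 (adjusted p = 0.0028). Gigantea (CSS034243) was at -3.59 (adjusted p = 0.0014), APRR5 (CSS050021) at -1.83 (adjusted p = 0.044), RAP2-7-like CSS023205 at -1.39 (adjusted p = 0.0049) and a chlorophyll a-b binding protein (CSS030123) at -1.53 (adjusted p = 0.041).

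The calls against SCZ_NA were uneven among groups. Over all loci, 1.58% were called below SCZ_NA and 1.45% above. All counts here use the spread shared by the 18 libraries. The whole comparison kept 16 calls with the spread of the 9 SCZ libraries and 50 with that of the groups compared. Counts per group were not taken under those settings, so the group pattern is only a description. Of 62 light-harvesting and photosystem loci, 11 were called below SCZ_NA and 0 above, with a median log2 difference of -0.57. The leaf mesophyll markers are photosynthesis genes too, chlorophyll a-b binding proteins among them, so they are not independent of these loci. Of the markers 11 of 27 were below and 0 above, with a median of -1.42. Their sums were 12921 ± 3088 FPKM in SCZ_DA and 36011 ± 3764 FPKM in SCZ_NA. The part of a shift in cell types in the result was not tested. Heat shock proteins had 14 of 42 below and 0 above, with a median of -1.21, and aquaporins 8 of 27 below and 0 above. Calcium sensors and kinases had 7 of 85 below and 0 above, and ethylene-responsive factors 4 of 39 below and 0 above. On the other side, LEA, dehydrin and cold-regulated proteins had 3 of 22 above and 0 below, starch breakdown 4 of 27 above and 0 below, and the CBF/DREB1 factors 1 of 4 above and 0 below. Cytosolic ribosomal proteins had 7 of 134 above and 0 below, and RNA helicases and cold-shock RNA-binding proteins 7 of 77 above and 0 below. The clock group had 6 above and 6 below of 29.

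Many of the same loci were called at this step in YH9. In YH9_DA against YH9_CA, 6820 loci (23.5%) were called, 3789 higher (13.1%) and 3031 lower (10.4%). The 2209 loci that rose in both cultivars made up 48.8% of the SCZ rises and 58.3% of the YH9 rises. The 1951 loci that fell in both made up 49.7% of the SCZ falls and 64.4% of the YH9 falls, and 33 of the SCZ rises fell and 49 of the SCZ falls rose in YH9. Of the 140 genes chosen for SCZ, 136 had the same sign in YH9 and 96 were called there in the same direction. These genes were picked for a large change or much transcript among the SCZ calls, so they do not stand for all calls. The share with the same sign over all loci was not computed. The test of the difference between the cultivars' changes passed at 499 loci (1.72%), with the change more positive in SCZ at 231 (0.796%) and more negative at 268 (0.924%). Among the 140 genes 6 of these were found. Only the first described here, CSS030704, passed under every alternative run, and the other 5 were lost when 1 library was left out. Tonoplast monosaccharide transporter 1 (CSS030704), which loads sugar into the vacuole, had 25.4, 20.8 and 18.2 FPKM in SCZ_DA and 45.8, 50.1 and 46.4 FPKM in SCZ_CA, and 14, 15.7 and 15.3 FPKM in YH9_DA and 11.5, 12.7 and 12.1 FPKM in YH9_CA. Its change in SCZ minus that in YH9 was -1.49 on the log2 scale (adjusted p = 0.015). It was lower in every SCZ_DA library than in any SCZ_CA library, whereas in YH9 its change was not called (log2 fold change 0.16, adjusted p = 0.57). UGT88A1 (CSS002986) had 12.2, 17.6 and 3.38 FPKM in SCZ_DA and 0.203, 0.183 and 0.161 FPKM in SCZ_CA, and 7.11, 4.97 and 7.81 FPKM in YH9_DA and 3.16, 1.23 and 1.05 FPKM in YH9_CA, with a difference in change of 3.96 (adjusted p = 0.018). The light-harvesting protein CP26 (CSS032972) had 983, 929.8 and 849 FPKM in SCZ_DA and 101, 42.1 and 123 FPKM in SCZ_CA, and 322, 523 and 478 FPKM in YH9_DA and 200.4, 161 and 166 FPKM in YH9_CA, with a difference of 1.97 (adjusted p = 0.045).

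**Figure D5:**
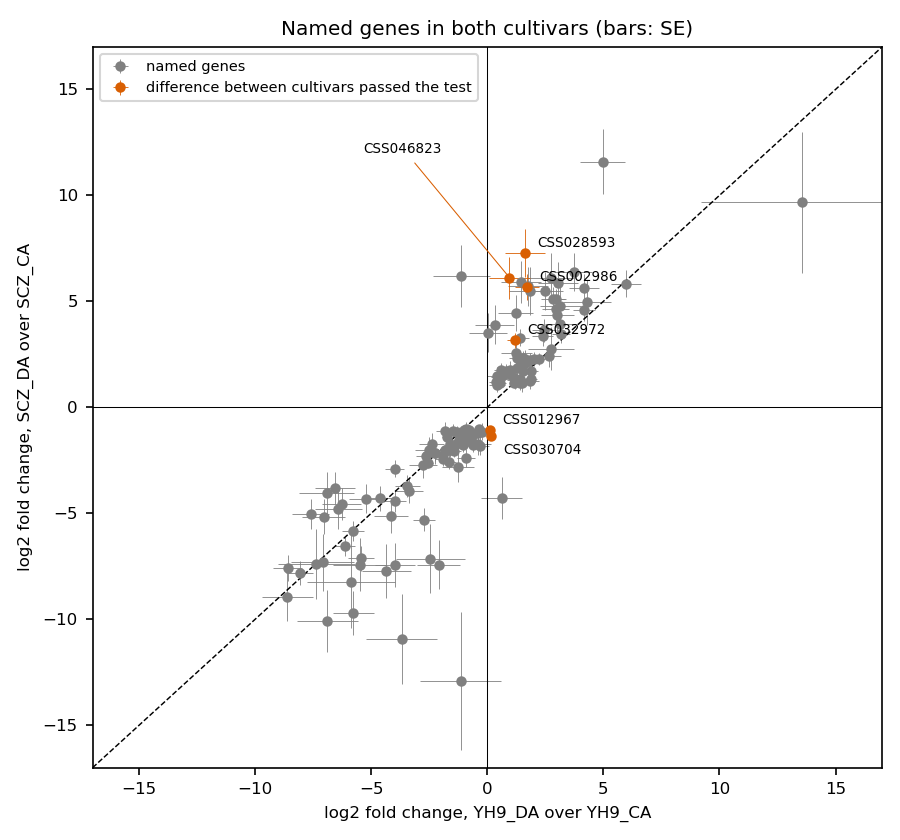
Log2 fold change in SCZ (y axis, SCZ_DA over SCZ_CA) against that in YH9 (x axis, YH9_DA over YH9_CA) for the 140 genes chosen for SCZ, with standard errors as bars and equality as the dashed diagonal. The 6 genes in orange passed the test of the difference between cultivars, and 136 of the 140 share the sign.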

How the data were processed

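Polyadenylated RNA of tea leaves was sequenced in paired reads by the study's authors from strand-marking libraries. Per the submitters' processing notes the tools were cutadapt 1.9, HISAT2 2.2.1, StringTie 2.1.6, UMI-tools, DESeq2 and edgeR, and the paper names another StringTie version and sequencer than the labels. The authors deposited 1 table with estimated counts, written as whole numbers, and FPKM for 18 libraries. Between 29.7 and 32.3% of the counts below 100 were multiples of 4, so they are not plain read counts, and the counting program, its use of strand and the genome build of the table are not given in the sources used here. FPKM values are those the authors deposited, normalized to transcript length and library total, and they are not free of composition effects between libraries. Some loci join several genes, and near-identical copies may share reads.

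Loci reaching 1 FPKM in 3 or more of the 18 libraries were tested on the deposited counts with edgeR 4.0.16 in R 4.3.3 (TMM factors, 1 mean per group, all 18 libraries sharing the estimate of spread, quasi-likelihood F test, Benjamini-Hochberg adjustment over 29019 loci). Dividing the absolute log2 fold change by the root of the F statistic gave its SE. Alternatives used DESeq2 1.42.0, limma 3.58.1 on log2(FPKM + 1) and log2(FPKM + 0.1), other scalings and filters, the spread of fewer libraries, a replicate block and the omission of each library. The procedure was tested on simulated counts for SCZ_DA against SCZ_CA over 29019 loci. The call found 2 and 4% of loci raised or lowered 2-fold and 38 and 42% of those raised or lowered 4-fold (50 loci each). All other simulated loci were left unchanged, whereas 8457 loci were called in the data. The adjustment for many tests was therefore stricter in the simulation, and these shares do not give the share found in the data. A locus not called may still have changed. A bound for a locus with no counts in a group used a floor of 3 counts per library, which covers counting error only.

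Genes were named by rule: the 15 largest rises and 15 largest falls among called loci with groups apart, a mean of at least 10 FPKM in the higher group and a description, and from each list up to 3 called loci, those with the most transcript. Members and lists were chosen with earlier results of these data known, and the words that define the lists were corrected after the product descriptions had been seen. One alternative, the omission of SCZ_CA replicate 2 and SCZ_DA replicate 2 together, was added after the data had been seen.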

Additional observations from a re-analysis of the deposited data

Results flagged for a closer look

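In 6 of the 140 named genes the change (DA over CA) differed between the cultivars by edgeR's test of the difference itself. The change in SCZ minus the change in YH9, on the log2 scale, was 5.65 for polygalacturonase 1 beta-like protein 1 (CSS028593), 5.17 for the germin-like protein CSS046823 and 3.96 for UGT88A1 (CSS002986). It was 1.97 for the light-harvesting protein CP26 (CSS032972), -1.49 for tonoplast monosaccharide transporter 1 (CSS030704) and -1.18 for NAC domain-containing protein 53 (CSS012967). Only CSS030704 passed under every alternative run. The other 5 were lost when 1 library was left out, 4 of the 6 were lost with the replicate block, 3 with the spread of the groups compared and 2 in limma. The genes were chosen for their change in SCZ. Groups of 3 libraries were not tested for outlying samples.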

How the results depend on the processing

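SCZ_DA against SCZ_CA gave 8457 calls, and 5154 (2586 higher, 2568 lower) with the spread of the groups compared. Limma on log2(FPKM + 1) called 2326 lower. Of the calls 53.5% were higher, against 64.1% with no scaling, 65.3% in limma on log2(FPKM + 1) and 67.4% in limma on log2(FPKM + 0.1), settings that moved the median of all loci to 0.19, 0.14 and 0.23. Leaving out 1 library gave between 7418 and 8772 calls, between 3936 and 4766 higher and between 3396 and 4006 lower. SCZ_DA against SCZ_NA gave 879 calls, 1865 with DESeq2, 16 with the spread of the 9 SCZ libraries, 50 with that of the groups compared and between 202 and 1291 leaving out 1 library. YH9_DA against YH9_CA gave between 5519 and 7447 leaving out 1 library. The cultivar difference gave 499 calls, 1804 with DESeq2, 831 in limma on log2(FPKM + 0.1), 1624 in limma on log2(FPKM + 1), 201 with the replicate block, 331 without SCZ_CA replicate 2 and SCZ_DA replicate 2 (1293 for SCZ_DA against SCZ_NA), and between 184 and 754 leaving out 1 library. The causes were not tested.

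Same-numbered libraries of SCZ_DA and SCZ_CA deviated together weakly (r = 0.083, 0.152 and 0.153), so the numbers were not taken as pairs, although every library correlated best with its own number. With the replicate block 4273 loci were called higher and 3598 lower, 7871 in all. Of the 140 named genes 96 were called under every alternative, and calls lost numbered 18 in limma, 30 with the spread of the groups compared, 24 with that of the 9 SCZ libraries, 5 with the replicate block and 31 when 1 library was left out. Pectinesterase 61 (CSS047843) changed sign, with log2 fold changes between -0.018 (without SCZ_DA replicate 2, edgeR adjusted p = 0.997) and 3.32 (without SCZ_DA replicate 3) when 1 library was left out.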
